A study of Homo sapiens with 3 samples.

Results

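The genes described here carry out glycolysis or respond to low oxygen. They were 38 genes chosen by name from the 58039 genes of a deposited expression table, and all 38 were found. The cells were T47D, a human line of luminal breast cancer that carries the estrogen receptor. The rule goes by gene name alone, although earlier results of these data were known when the names were chosen. The series has 3 libraries. The 2 knockdown libraries came from cells carrying shRNA1 or shRNA2 (short hairpin RNAs) against ERINA, a long noncoding RNA. The 1 control library is described as carrying a control hairpin, although its shRNA label reads None. The hairpins entered the cells on lentiviral vectors with puromycin selection of stable lines, and nothing in the labels mentions a low-oxygen treatment. The study asked which genes differ after ERINA is reduced.

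Glycolysis splits glucose into pyruvate, which lactate dehydrogenase turns into lactate. Many of its enzymes exist as several isozymes from separate genes. Hypoxia-inducible factor (HIF) is a pair of proteins, an alpha subunit (HIF1A, or EPAS1, also called HIF-2 alpha) and the beta subunit ARNT. When oxygen is present, prolyl hydroxylases of the EGLN family mark the alpha subunit, the VHL protein binds it and it is degraded. Without oxygen it accumulates, enters the nucleus and switches on genes for glycolysis, glucose uptake, vessel growth, collagen modification and mitochondrial turnover. In many tumour cells this programme also runs at normal oxygen.

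The 38 genes were grouped by role as 17 glycolytic enzymes, 3 regulators of flux (PFKFB3, PFKFB4 and PDK1), 3 transporters (SLC2A1, SLC2A3 and SLC16A3), the 2 HIF alpha subunits and 13 other HIF targets. Levels are in FPKM (fragments per kilobase of transcript, relative to sequencing depth), which allows for gene length, so that genes can be compared. Changes are differences in log2(FPKM + 0.5), knockdown minus control. Of the 38, 37 had a mean level of at least 1 FPKM and were tested among 13112 genes with limma. The exception was SLC2A3, the high-affinity glucose transporter GLUT3, listed at 0 FPKM with shRNA1, 0.00734 FPKM with shRNA2 and 0.136 FPKM in the control.

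With ERINA reduced, genes of both kinds lay on either side of the control. Of the 17 glycolytic enzymes 9 were within 0.25 of it on the log2 scale, and of the 13 other HIF targets 6 were, against 52.6% of all genes tested. ANGPTL4, LDHB, NDRG1, EPAS1 and P4HA2 had the largest folds of the 37 tested on the lower side, from 2.06-fold to 1.66-fold, and ANKRD37 the largest on the higher side, at 2.20-fold. Among the abundant enzymes, ALDOA and GAPDH were higher and ENO1 lower with both shRNAs. Over all genes, limma with Benjamini-Hochberg adjustment at 0.05 called 0 of the 37 (lowest adjusted p 0.0831, for ANGPTL4), where 0.351% of all genes tested were called, 0.0839% higher and 0.267% lower, and 16 of the 37 had an unadjusted p under 0.05, against 29.7% of all genes. With limma fitted on the 11546 protein-coding genes alone, 10 of the 37 passed, 2 higher and 8 lower, where the share of all protein-coding genes called was 18.4%, made up of 7.11% higher and 11.3% lower. Those 10 were ANKRD37 and EGLN3 on the higher side and ANGPTL4, NDRG1, P4HA2, EPAS1, PFKFB4, ENO1, SLC16A3 and ALDOC on the lower side. With limma's robust option over all genes, ANKRD37, ANGPTL4 and P4HA2 passed (adjusted p 0.0457, 0.0328 and 0.0469). That option called 430 genes higher and 595 lower of the 13112 tested. Over all alternatives, the adjusted p of the 10 (limma, Benjamini-Hochberg) ran from 0.00773 to 0.402. A gene's own error rests only on its gap between shRNA1 and shRNA2 (1 residual degree of freedom). limma then draws that error towards the error of genes at a similar level, so each SE and p-value rests on both. For ALDOC the gap was 0.00145 on the log2 scale and the SE 0.077. The lone control library is assumed to vary like the shRNA libraries. Such gaps mix a hairpin difference with library noise, so the p-values cover no other source of spread. In such bulk RNA, fewer cells of a type and less RNA per cell cannot be told apart.

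By size alone, 5 of the 37 genes were at least 1.5-fold from the control with both shRNAs, 1 higher and 4 lower, against 10.4% of all genes tested (4.38% higher and 5.99% lower). The lower ones were ANGPTL4, P4HA2, EPAS1 and LDHB. Both shRNA values lay on the same side of the control for 32 of the 37, 13 higher and 19 lower, against 85% of all genes tested, 42.4% higher and 42.6% lower. The 5 genes that the shRNAs placed on opposite sides were PKM, HIF1A, CA9, ADM and KDM3A. The deposited confidence bounds were wide, with a median distance from the FPKM to its upper bound of 46.2% of the FPKM over the 37 genes. No gene of the 37 had bounds of both shRNAs clear of the control bounds (0, against 0.305% of all genes tested). For 3 genes, LDHB, ANGPTL4 and P4HA2, the upper bounds of both shRNAs lay below the control value itself. On the higher side 0 of the 37 had lower bounds of both shRNAs above the control value. The matching shares of all genes tested were not counted.

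**Figure D1:**
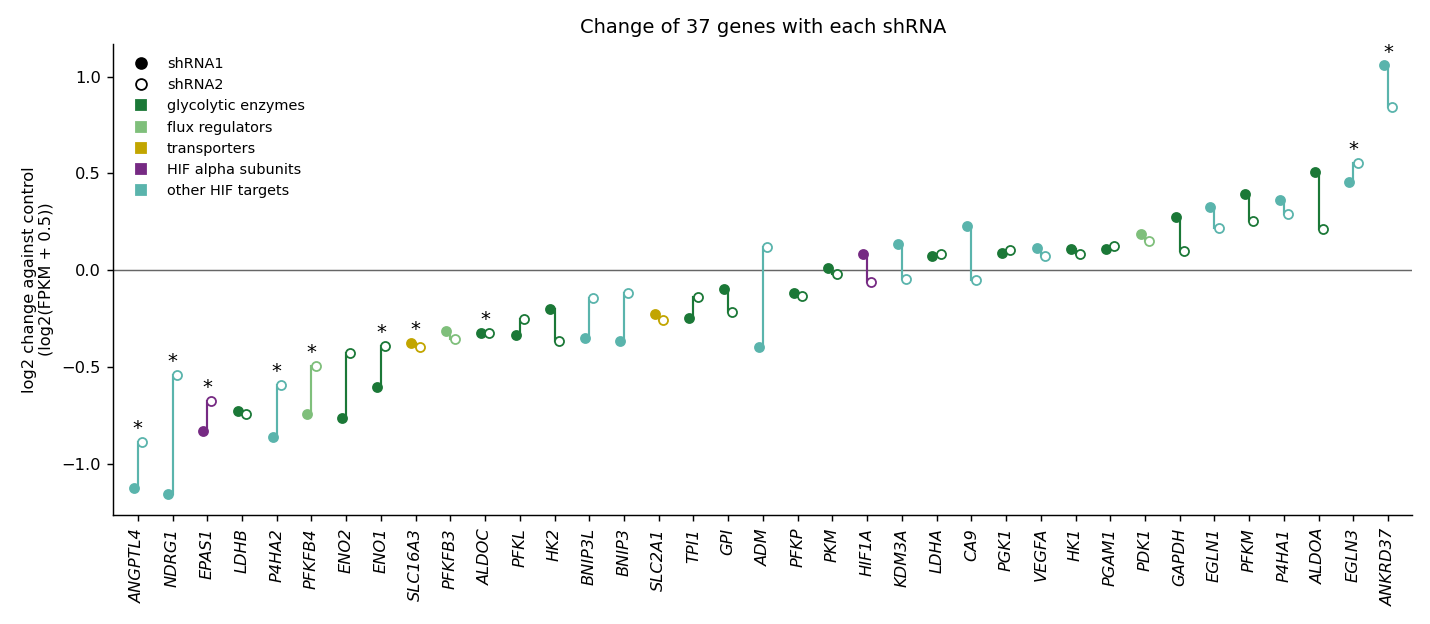
Log2 change of the 37 tested genes against the control, with shRNA1 as filled and shRNA2 as open circles, ordered by the mean of both and coloured by role. Asterisks mark the 10 genes that passed limma among protein-coding genes alone, and ANGPTL4 and ANKRD37 stand at the ends with mean changes of -1.01 and 0.95.

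ERINA itself, listed under its other name LINC00992, stood at 5.21 FPKM with shRNA1 and 8.91 FPKM with shRNA2, against 63.4 FPKM in the control. Summed over all genes, the FPKM came to 860240 with shRNA1, 808451 with shRNA2 and 790290 in the control. The depth, estimated from genes whose bounds fit a single fragment, was about 29200000 fragments with shRNA1, 29800000 with shRNA2 and 28400000 in the control, at which 1 fragment over 1 kb is worth 0.0335 to 0.0352 FPKM. All 8 luminal markers were above the test's minimum level, the lowest at 16.5 FPKM. KRT19, FOXA1 and PGR passed as higher among protein-coding genes (log2 changes 0.58, 0.50 and 0.39), and the other 5 did not pass. Of all protein-coding genes 18.4% passed, 7.11% as higher and 11.3% as lower. Of 11 markers of basal, stromal, endothelial and immune cells 9 were below the test's minimum level, and these 9 reached at most 0.525 FPKM. Their sum over all 11 was 3.29 FPKM with shRNA1, 4.37 FPKM with shRNA2 and 7.49 FPKM in the control. COL1A1 stood at 1.65 FPKM with shRNA1, 2.10 FPKM with shRNA2 and 5.16 FPKM in the control and passed as lower among protein-coding genes (log2 change -1.26, limma adjusted p 0.00959, Benjamini-Hochberg), and CD3E alone was at 0 in each library. All 10 proliferation markers were lower with both shRNAs, with a summed level of 426 FPKM with shRNA1, 505 FPKM with shRNA2 and 796 FPKM in the control, and all 10 passed among protein-coding genes, RRM2, PLK1 and AURKB with log2 changes of -1.44, -1.36 and -1.15. Their part in the changes described below was not tested.

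HIF binds DNA at short core words, ACGTG or GCGTG, on either strand, and these were searched in the RefSeq promoter sequences (GRCh38.p14, 250 bases before to 50 bases after a gene's start). A promoter entry was found for 34 of the 38 genes, with 62 starts among them, and NDRG1, BNIP3L, VEGFA and SLC2A3 had none. A core word stood in 67.7% of the 62 windows, against 48.4% of all 35116 windows. The ACGTG form stood in 38.7% of the 62 and in 21.4% of all. ACGTG is also part of CACGTG, the E-box bound by MYC and other factors. Counted by gene, 16 of 17 glycolytic enzymes and 8 of 10 other HIF targets had a word at 1 start or more. So did 31 of all 34 (91.2%), against 52.4% of all 27305 genes with an entry. A gene with more starts has more chances of a word. The 34 genes have 62 starts and the 27305 have 35116, and the shares by gene are not adjusted for this. The comparison windows and genes were not limited to protein-coding or expressed genes, whereas all 38 genes here are protein-coding. The part of this in the gap was not tested. The windows of P4HA2 and EGLN3 held neither form. The stretches shown here surround the word nearest to a start, with the word in capitals, 5′ to 3′ on the gene's strand. They cover the 7 genes with a word among those that passed limma on protein-coding genes alone, followed by 3 examples that did not pass. CACGT is ACGTG read from the opposite strand.
ANKRD37 (chr4:185396688-185396712, plus strand): gtgtttgtgtACGTGcggccgtggc
ANGPTL4 (chr19:8363911-8363935, plus strand): aaagaagagtCACGTctcccacggt
EPAS1 (chr2:46297280-46297304, plus strand): gcctgccggcGCGTGcccgcccaca
PFKFB4 (chr3:48556955-48556979, minus strand): agttgggcatGCGTGgtcggaggcc
ENO1 (chr1:8878744-8878768, minus strand): agctgaggggGCGTGccccggaggc
SLC16A3 (chr17:82234867-82234891, plus strand): tcgtgggtggGCGTGgagcttgcac
ALDOC (chr17:28576909-28576933, minus strand): ccggaggagtCACGTagctctgcga
P4HA1 (chr10:73096938-73096962, minus strand): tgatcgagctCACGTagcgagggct
LDHA (chr11:18394480-18394504, plus strand): tgggttcccgCACGTccgccggccc
PGK1 (chrX:78104266-78104290, plus strand): ctccggagcgCACGTcggcagtcgg
Counting only the word nearest to a start, 3 of the first 7 have ACGTG and 4 have GCGTG, while the windows of SLC16A3 and ALDOC hold both forms. The last 3 shown all have ACGTG, but other genes that did not pass, such as PFKL and PKM, have GCGTG nearest. A match describes letters in a window and is no evidence of binding.

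The 17 glycolytic enzymes together made up 1.13% of the summed FPKM with shRNA1, 1.13% with shRNA2 and 1.14% in the control, or 9757, 9099.7 and 8996 FPKM. Their median log2 change was -0.12, against 0.00 for all genes tested. With both shRNAs 9 were lower and 7 higher, against 42.6% lower and 42.4% higher of all genes tested. None passed over all genes. Among protein-coding genes alone 2 passed (11.8%), both lower, against 18.4% of all protein-coding genes, 11.3% being lower. GAPDH and ALDOA were the most abundant of the 17 in every library. GAPDH, the dehydrogenase of the middle of the pathway, stood at 2790.4 FPKM with shRNA1, 2469 FPKM with shRNA2 and 2303 FPKM in the control. ALDOA, the main aldolase, which splits the phosphorylated sugar, stood at 2624 FPKM with shRNA1, 2137 FPKM with shRNA2 and 1845 FPKM in the control. Both were higher with both shRNAs, but ALDOA (log2 change 0.36, SE 0.17) and GAPDH (0.19, SE 0.13) did not pass in either fit. The pair held 55.5% of the enzyme sum with shRNA1, 50.6% with shRNA2 and 46.1% in the control.

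ENO1, the main enolase, which makes phosphoenolpyruvate, ran the other way. Its level was 976 FPKM with shRNA1 and 1132 FPKM with shRNA2, against 1485 FPKM in the control, a log2 change of -0.50 (SE 0.13). The knockdown mean was 1054 ± 111 FPKM (SD, n = 2), 1.41-fold lower than the control. The limma adjusted p (Benjamini-Hochberg) was 0.118 over all genes and 0.0332 among protein-coding genes, with 0.0332 to 0.307 over the alternatives. Its share of the enzyme sum was 10% with shRNA1, 12.4% with shRNA2 and 16.5% in the control. The ratio of ALDOA to ENO1 within a library, which no scaling between libraries can alter, was 2.69 with shRNA1, 1.89 with shRNA2 and 1.24 in the control. ENO1 lies at 8861000 to 8879250 on the minus strand of chromosome 1 (GRCh38) and shares exon bases with the antisense gene ENO1-AS1. ENO1-AS1 stood at 1.89 FPKM with shRNA1, 1.90 FPKM with shRNA2 and 0.621 FPKM in the control, and counting by strand is not given in the sources used here.

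Most of the other steps moved little. PKM, the pyruvate kinase gene, was at 784 FPKM with shRNA1, 768 FPKM with shRNA2 and 777 FPKM in the control. LDHA, the main lactate dehydrogenase, was at 694 FPKM with shRNA1, 698 FPKM with shRNA2 and 658 FPKM in the control. PGK1, a phosphoglycerate kinase, was at 805 FPKM with shRNA1, 815 FPKM with shRNA2 and 758 FPKM in the control. The knockdown values of these 3 genes lay within 10% of the control. PGAM1, the mutase of the next step, was at 111 FPKM with shRNA1, 112 FPKM with shRNA2 and 103 FPKM in the control. TPI1, the triosephosphate isomerase, was at 244 FPKM with shRNA1, 263 FPKM with shRNA2 and 289 FPKM in the control. GPI, the glucose-6-phosphate isomerase, was at 185 FPKM with shRNA1, 170.1 FPKM with shRNA2 and 197 FPKM in the control. PGAM1 was slightly higher and TPI1 and GPI slightly lower with both shRNAs, and none of the 3 passed in either fit. Summed by step, enolase had the lowest ratio to the control, 0.657 with shRNA1 and 0.762 with shRNA2, and aldolase the highest, 1.38 with shRNA1 and 1.13 with shRNA2. The other 9 steps lay between 0.843 and 1.21.

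**Figure D2:**
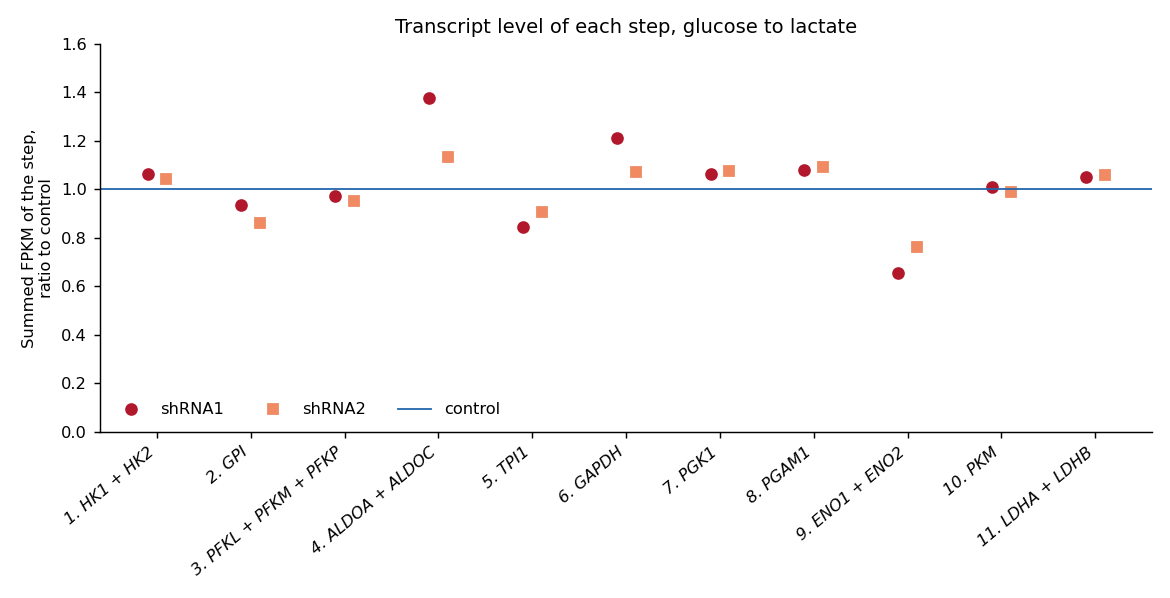
Summed FPKM of the isozymes of each of 11 steps from glucose to lactate, as a ratio to the control, with circles for shRNA1, squares for shRNA2 and a line at 1 for the control. Enolase lies lowest with both shRNAs, at 0.657 and 0.762, and aldolase highest, at 1.38 and 1.13.

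Shares of isozymes within a step are given next. Of the phosphofructokinase genes, PFKM, the muscle type, was at 81.3 FPKM with shRNA1, 73.8 FPKM with shRNA2 and 61.7 FPKM in the control. PFKL, the liver type, was at 54.4 FPKM with shRNA1, 57.7 FPKM with shRNA2 and 68.8 FPKM in the control. PFKP, the platelet type and the most abundant of the 3, was at 158 FPKM with shRNA1, 157 FPKM with shRNA2 and 172 FPKM in the control. PFKM took 27.6% of the step with shRNA1, 25.6% with shRNA2 and 20.4% in the control, while the step's sum kept a ratio to the control of 0.973 with shRNA1 and 0.953 with shRNA2. Neither PFKM (log2 change 0.33, SE 0.10) nor PFKL (-0.29, SE 0.09) passed in either fit. PFKM shares exon bases with SENP1 on the other strand.

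ALDOC, the aldolase typical of brain, was at 118 FPKM with both shRNA1 and shRNA2 and at 148 FPKM in the control. Its log2 change of -0.32 (SE 0.08) passed limma among protein-coding genes (adjusted p 0.0443, Benjamini-Hochberg; 0.0443 to 0.227 over the alternatives). ALDOC took 4.31% of the aldolase sum with shRNA1, 5.23% with shRNA2 and 7.41% in the control. Its deposited bounds were wide, from 24.5 to 212 FPKM with shRNA1 and from 23.2 to 272 FPKM in the control.

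ENO2, the neuronal enolase, was scarce, at 4.08 FPKM with shRNA1, 5.27 FPKM with shRNA2 and 7.27 FPKM in the control, and all its lower bounds were 0. LDHB, which favours the reaction from lactate to pyruvate, was scarcer still, at 1.07 FPKM with shRNA1, 1.05 FPKM with shRNA2 and 2.09 FPKM in the control. Its knockdown mean was 1.06 ± 0.0112 FPKM (SD, n = 2), 1.98-fold lower than the control. The log2 change of LDHB was -0.73 (SE 0.19), understated by the added 0.5 FPKM, and did not pass (limma adjusted p 0.115 over all genes and 0.0516 among protein-coding genes, Benjamini-Hochberg; 0.0516 to 0.234 over the alternatives). HK1, the hexokinase of most tissues, was at 120.2 FPKM with shRNA1, 118 FPKM with shRNA2 and 112 FPKM in the control. HK2, the inducible hexokinase and a HIF target, was at 6.39 FPKM with shRNA1, 5.66 FPKM with shRNA2 and 7.43 FPKM in the control. Neither hexokinase passed in either fit, and HK2 made up 5.05% of their sum with shRNA1, 4.57% with shRNA2 and 6.25% in the control.

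**Figure D3:**
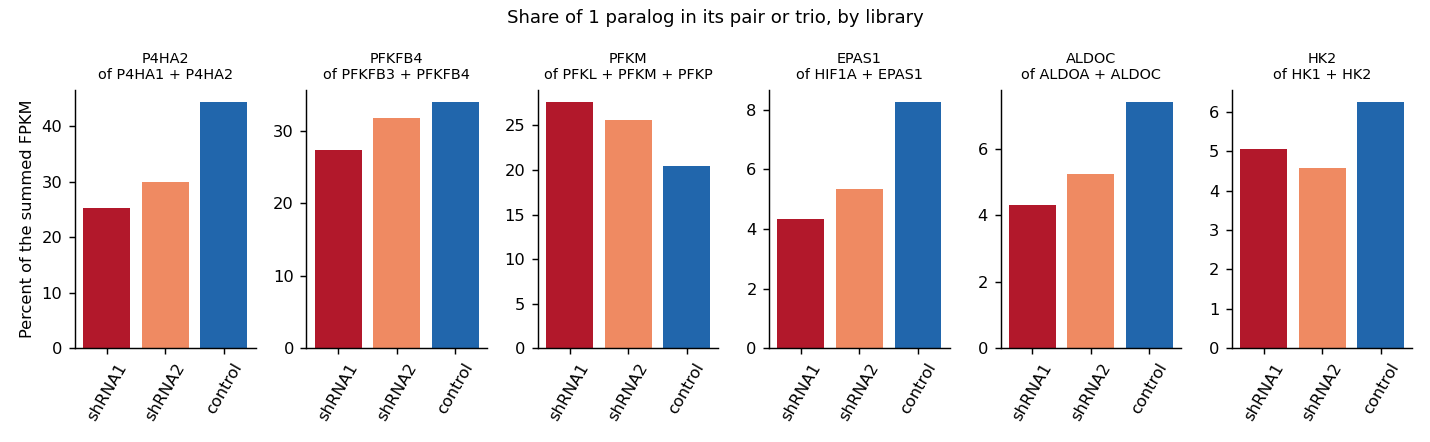
Share of 1 gene in the summed FPKM of its pair or trio, as bars from 0 for shRNA1, shRNA2 and the control, 1 value each with no error. P4HA2 shows the widest gap, at 25.2% and 30.0% with the shRNAs and 44.4% in the control, and PFKM is the 1 gene of the 6 whose share was higher with both shRNAs.

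Of the 5 tested flux regulators and transporters, PFKFB4 and SLC16A3 passed among protein-coding genes alone, both lower, and none passed over all genes. Of all protein-coding genes 18.4% passed, 11.3% as lower. PFKFB4 makes fructose 2,6-bisphosphate, the activator of phosphofructokinase, and is induced by HIF. It stood at 11.9 FPKM with shRNA1 and 14.2 FPKM with shRNA2, against 20.2 FPKM in the control, 1.55-fold above the knockdown mean of 13.0 ± 1.66 FPKM (SD, n = 2). Its log2 change of -0.62 (SE 0.15) passed limma among protein-coding genes (adjusted p 0.0255, Benjamini-Hochberg; 0.0255 to 0.287 over the alternatives). PFKFB3, which does the same with higher kinase activity, was at 31.5 FPKM with shRNA1, 30.6 FPKM with shRNA2 and 39.3 FPKM in the control and did not pass (limma adjusted p 0.0554 among protein-coding genes, Benjamini-Hochberg; 0.0554 to 0.228 over the alternatives).

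PDK1, a kinase that switches off pyruvate dehydrogenase, was at 14.5 FPKM with shRNA1, 14.1 FPKM with shRNA2 and 12.7 FPKM in the control. SLC16A3 encodes MCT4, which exports lactate. Its level was 56.2 FPKM with shRNA1 and 55.5 FPKM with shRNA2, against 73.1 FPKM in the control, a log2 change of -0.38 (SE 0.08) that passed among protein-coding genes (limma adjusted p 0.0301, Benjamini-Hochberg; 0.0301 to 0.227 over the alternatives). It shares exon bases with CSNK1D on the other strand, at 28.7 FPKM with shRNA1, 31.3 FPKM with shRNA2 and 32.5 FPKM in the control. SLC2A1, the glucose transporter GLUT1, was at 28.0 FPKM with shRNA1, 27.4 FPKM with shRNA2 and 32.9 FPKM in the control and did not pass in either fit.

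**Figure D4:**
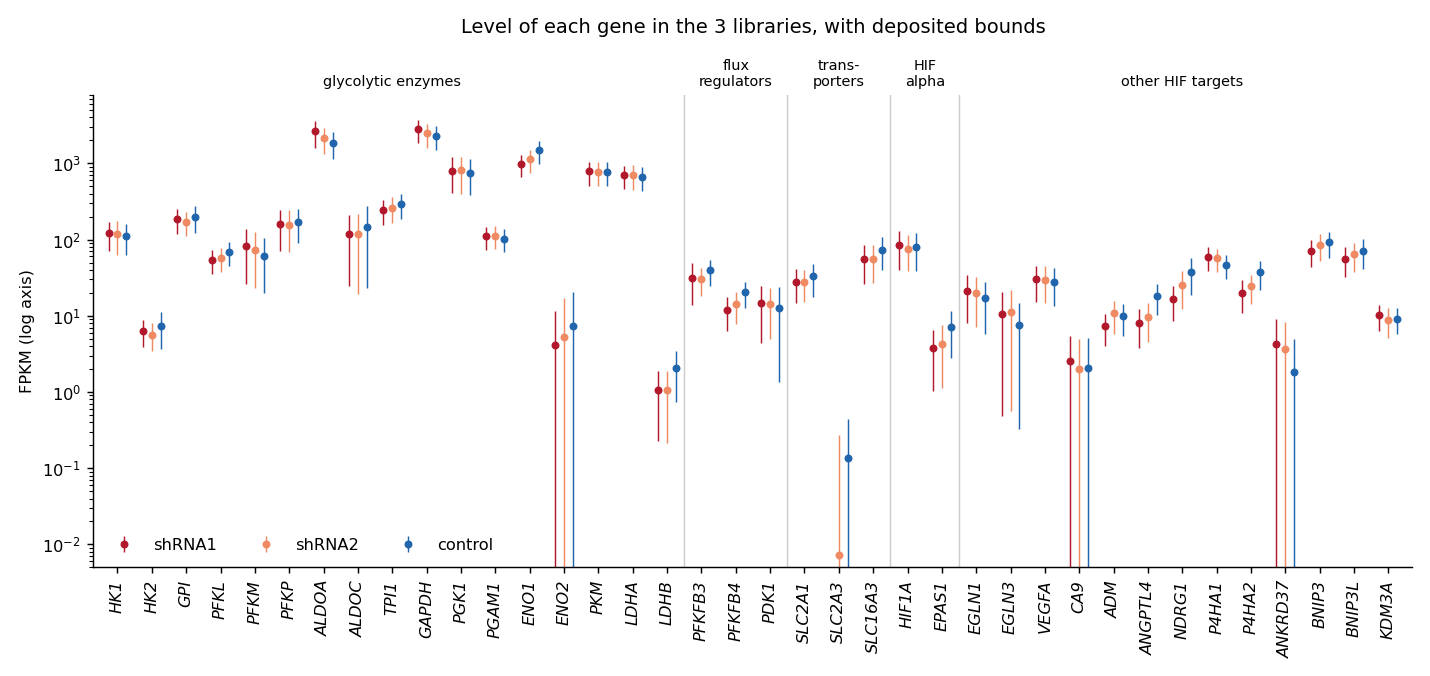
FPKM of the 38 genes on a log axis with shRNA1, shRNA2 and the control side by side, bars giving the deposited bounds, 1 library per point. Bars that reach the lower edge have a lower bound of 0, and SLC2A3 is not drawn for shRNA1, where it was listed at 0. The bounds of the shRNAs overlap those of the control for all 37 genes tested.

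The HIF alpha subunits followed separate courses. HIF1A was at 84.3 FPKM with shRNA1 and 76.2 FPKM with shRNA2, on opposite sides of the control at 79.5 FPKM. EPAS1 was at 3.81 FPKM with shRNA1 and 4.29 FPKM with shRNA2, both below the control at 7.16 FPKM. Its knockdown mean of 4.05 ± 0.339 FPKM (SD, n = 2) was 1.77-fold lower, with a log2 change of -0.75 (SE 0.15). EPAS1 passed limma among protein-coding genes (adjusted p 0.0221, Benjamini-Hochberg; 0.0221 to 0.239 over the alternatives). It made up 4.32% of the alpha subunit sum with shRNA1, 5.33% with shRNA2 and 8.26% in the control.

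Of 13 measured partners and regulators of HIF outside the 38 genes, none passed over all genes (lowest limma adjusted p 0.0829, Benjamini-Hochberg). An unadjusted limma p under 0.05 was found for 2 of the 13, against 29.7% of all genes tested. Among protein-coding genes 2 passed (15.4%, against 18.4% of all protein-coding genes), both lower, and the median of the 13 was 0.00. ARNT, the shared beta subunit, was at 6.40 FPKM with shRNA1, 6.99 FPKM with shRNA2 and 14.1 FPKM in the control. HIF1AN, an asparagine hydroxylase that blocks HIF's coactivator contact, was at 16.0 FPKM with shRNA1, 19.9 FPKM with shRNA2 and 28.5 FPKM in the control. Their log2 changes were -1.02 (SE 0.12) for ARNT and -0.66 (SE 0.16) for HIF1AN. VHL was at 27.4 FPKM with shRNA1, 28.4 FPKM with shRNA2 and 32.2 FPKM in the control and did not pass.

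Of the prolyl hydroxylase genes, EGLN1 and EGLN3 are also HIF targets. EGLN3 was at 10.5 FPKM with shRNA1 and 11.3 FPKM with shRNA2, against 7.51 FPKM in the control, a log2 change of 0.51 (SE 0.12) that passed among protein-coding genes (limma adjusted p 0.0393, Benjamini-Hochberg; 0.0393 to 0.239 over the alternatives). Its bounds were wide, from 0.325 to 14.7 FPKM in the control. EGLN1, the main oxygen sensor of the family, was at 21.3 FPKM with shRNA1, 19.8 FPKM with shRNA2 and 16.9 FPKM in the control and did not pass in either fit (log2 change 0.27, SE 0.10). EGLN2, the other member of the family, was at 43.5 FPKM with shRNA1, 40.6 FPKM with shRNA2 and 45.5 FPKM in the control and did not pass either (log2 change -0.11, SE 0.09).

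The 13 other HIF targets, EGLN1 and EGLN3 included, split evenly, with 5 higher and 5 lower with both shRNAs. Of all genes tested 42.4% were higher and 42.6% lower. None of the 13 passed over all genes. Among protein-coding genes 5 of the 13 passed (38.5%), 2 higher and 3 lower, against 18.4% of all protein-coding genes. The median of the 13 was 0.04, against -0.12 for the glycolytic enzymes, a difference that was not tested. The interquartile range was 0.52 for the HIF targets, 0.39 for the enzymes and 0.47 for all genes tested. Their changes ran from -1.01 to 0.95, and those of the enzymes from -0.73 to 0.36. At a mean of at least 5 FPKM the median of the HIF targets was -0.14 and that of the enzymes -0.063.

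ANGPTL4, a secreted inhibitor of lipoprotein lipase that PPAR factors also induce, was the lowest of them relative to the control. It stood at 7.99 FPKM with shRNA1 and 9.50 FPKM with shRNA2, against 18.0 FPKM in the control. The knockdown mean was 8.75 ± 1.07 FPKM (SD, n = 2), 2.06-fold lower, with a log2 change of -1.01 (SE 0.15). The limma adjusted p (Benjamini-Hochberg) was 0.0831 over all genes and 0.00773 among protein-coding genes, with 0.00773 to 0.239 over the alternatives. ANGPTL4 lies at 8363289 to 8374373 on the plus strand of chromosome 19 (GRCh38) and shares exon bases with RAB11B-AS1 on the other strand. RAB11B-AS1 was higher with both shRNAs, at 6.54 FPKM with shRNA1, 6.80 FPKM with shRNA2 and 3.26 FPKM in the control.

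NDRG1, a stress-induced gene named as a suppressor of metastasis, differed most between the hairpins. It was at 16.6 FPKM with shRNA1 and 25.7 FPKM with shRNA2, against 37.6 FPKM in the control, with a log2 change of -0.85 (SE 0.28). It passed limma among protein-coding genes (adjusted p 0.0387, Benjamini-Hochberg; 0.0387 to 0.402 over the alternatives). The change was -1.16 with shRNA1 and -0.54 with shRNA2.

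The collagen prolyl 4-hydroxylase genes lay on opposite sides of the control. Their proteins hydroxylate collagen in the endoplasmic reticulum and are unrelated in role to the EGLN oxygen sensors. P4HA2 was at 20.1 FPKM with shRNA1 and 24.4 FPKM with shRNA2, against 37.01 FPKM in the control, a log2 change of -0.73 (SE 0.15). P4HA1 was at 59.8 FPKM with shRNA1 and 56.9 FPKM with shRNA2, against 46.4 FPKM in the control, a log2 change of 0.33 (SE 0.09). P4HA2 passed limma among protein-coding genes (adjusted p 0.0141, Benjamini-Hochberg; 0.0141 to 0.273 over the alternatives) and P4HA1 did not (0.0533; 0.0533 to 0.2496 over the alternatives). Their sum was 79.9 FPKM with shRNA1, 81.3 FPKM with shRNA2 and 83.4 FPKM in the control. The ratio of P4HA1 to P4HA2 was 2.97 with shRNA1, 2.34 with shRNA2 and 1.25 in the control.

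ANKRD37, a small ankyrin-repeat protein, had the highest ratio to the control of the 37. It was at 4.30 FPKM with shRNA1 and 3.64 FPKM with shRNA2, against 1.81 FPKM in the control. The knockdown mean of 3.97 ± 0.466 FPKM (SD, n = 2) was 2.20-fold the control, with a log2 change of 0.95 (SE 0.18). It passed limma among protein-coding genes (adjusted p 0.0170, Benjamini-Hochberg; 0.0170 to 0.243 over the alternatives). All 3 lower bounds of ANKRD37 were 0. Its exons overlap UFSP2 on the other strand, which was at 13.9 FPKM with shRNA1, 16.7 FPKM with shRNA2 and 19.7 FPKM in the control.

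VEGFA, CA9, ADM and KDM3A did not pass in either fit. VEGFA, the vessel growth factor, was at 30.4 FPKM with shRNA1, 29.6 FPKM with shRNA2 and 28.0 FPKM in the control. CA9, a carbonic anhydrase of the cell surface and a marker of hypoxic tumours, was scarce, at 2.53 FPKM with shRNA1, 1.99 FPKM with shRNA2 and 2.08 FPKM in the control. The bounds of CA9 began at 0 in each library. ADM, the vasodilator adrenomedullin, lay on both sides of the control, at 7.34 FPKM with shRNA1, 10.7 FPKM with shRNA2 and 9.83 FPKM in the control. KDM3A, a histone demethylase, was at 10.1 FPKM with shRNA1, 8.89 FPKM with shRNA2 and 9.20 FPKM in the control. For CA9, ADM and KDM3A the shRNAs lay on opposite sides of the control, with gaps between them of 0.28, 0.52 and 0.18 on the log2 scale.

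BNIP3 and BNIP3L, which mark mitochondria for removal, were somewhat lower. BNIP3 was at 71.4 FPKM with shRNA1, 84.8 FPKM with shRNA2 and 92.2 FPKM in the control. BNIP3L was at 55.9 FPKM with shRNA1, 64.6 FPKM with shRNA2 and 71.4 FPKM in the control. Neither passed in either fit, and the share of BNIP3L in their sum was 43.9% with shRNA1, 43.2% with shRNA2 and 43.6% in the control.

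A further list of HIF targets outside the 38 genes, 24 of 26 of them measured, was also mixed. Their median was 0.06, with 12 higher and 10 lower with both shRNAs. None passed limma over all genes (8 had an unadjusted p under 0.05, against 29.7% of all genes). Among protein-coding genes 3 higher and 4 lower passed (30.4% of those tested there, against 18.4% of all protein-coding genes). STC2, a secreted glycoprotein that estrogen also induces, was at 45.7 FPKM with shRNA1, 47.8 FPKM with shRNA2 and 93.1 FPKM in the control. ERO1A, an oxidase of the endoplasmic reticulum, was at 60.6 FPKM with shRNA1, 71.4 FPKM with shRNA2 and 115.7 FPKM in the control. ZNF395 was at 8.61 FPKM with shRNA1, 10.2 FPKM with shRNA2 and 16.8 FPKM in the control. These 3 were the largest changes of the list and all were lower, whereas DDIT4, an inhibitor of mTORC1, was at 110 FPKM with shRNA1, 105 FPKM with shRNA2 and 73.7 FPKM in the control.

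Neighbouring pathways were described in the same way. None of the genes in the 3 lists given here passed limma over all genes (lowest adjusted p 0.0829, Benjamini-Hochberg). Of all protein-coding genes 18.4% passed limma, and 29.7% of all genes had an unadjusted limma p under 0.05. Of 10 measured other glycolytic isozymes and regulators, 0 passed among protein-coding genes either, with 2 at an unadjusted p under 0.05 over all genes and a median of -0.07. Of 18 measured genes of gluconeogenesis, the pentose phosphate path and glycogen, 1 higher and 3 lower passed among protein-coding genes (22.2%). In this list 7 had an unadjusted p under 0.05, and the median was -0.18. PGM1, which links glycogen to glycolysis, was at 8.44 FPKM with shRNA1, 11.01 FPKM with shRNA2 and 27.9 FPKM in the control. PC, pyruvate carboxylase, was at 4.12 FPKM with shRNA1, 5.24 FPKM with shRNA2 and 12.8 FPKM in the control. FBP1, the gluconeogenic phosphatase, was at 27.7 FPKM with shRNA1, 25.7 FPKM with shRNA2 and 18.5 FPKM in the control. PGM1 and PC were further from the control than any of the 37 genes, on the lower side, with log2 changes of -1.49 (SE 0.19) and -1.37 (SE 0.18).

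Of 25 measured genes of pyruvate entry and the citric acid cycle, 5 passed among protein-coding genes (20%), all lower. Of all protein-coding genes 18.4% passed, 11.3% as lower. In the list 7 had an unadjusted p under 0.05 over all genes, and the median was -0.10. IDH3A, a subunit of isocitrate dehydrogenase, was at 29.3 FPKM with shRNA1, 33.1 FPKM with shRNA2 and 46.2 FPKM in the control. DLD, shared by the pyruvate and 2-oxoglutarate dehydrogenases, was at 25.4 FPKM with shRNA1, 29.6 FPKM with shRNA2 and 37.4 FPKM in the control. SDHA, the catalytic subunit of succinate dehydrogenase, was at 75.8 FPKM with shRNA1, 83.5 FPKM with shRNA2 and 107.7 FPKM in the control.

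**Figure D5:**
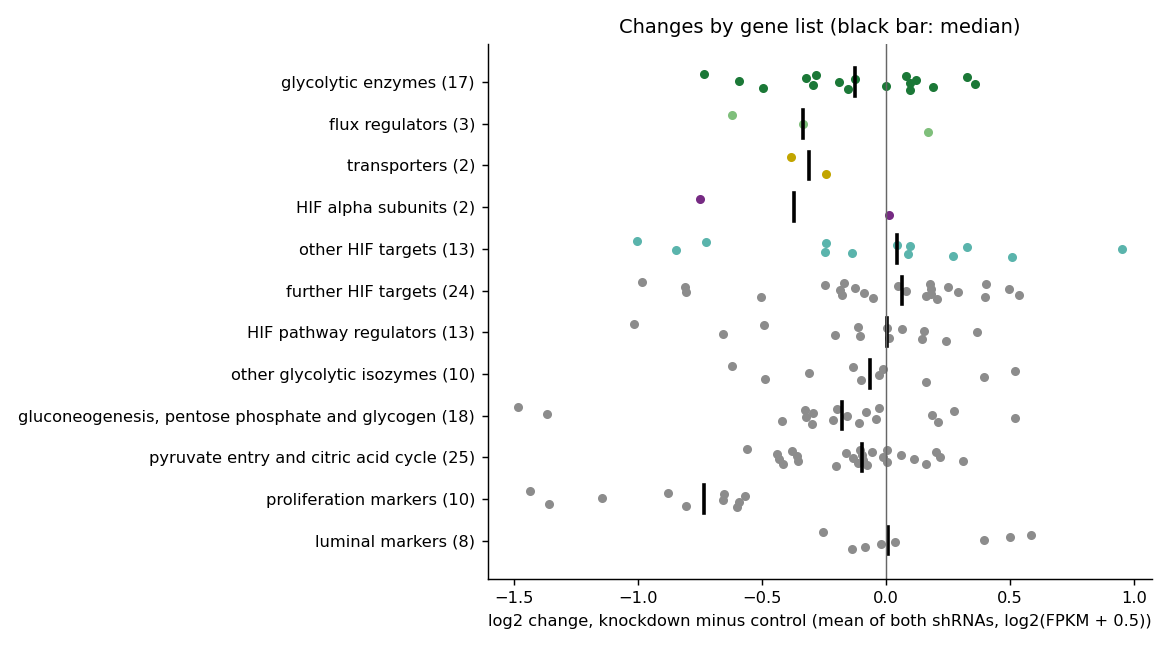
Log2 change of each measured gene, knockdown minus control, by list, with the number of genes in brackets and the median as a black bar. Medians lie between -0.12 and 0.06 for the glycolytic enzymes, both lists of HIF targets, HIF regulators, other isozymes, the citric acid cycle and luminal markers. They lie at -0.34 for the 3 flux regulators, -0.31 for the 2 transporters and -0.37 for the 2 HIF alpha subunits. The median is -0.18 for gluconeogenesis, pentose phosphate and glycogen, and -0.73 for the proliferation markers.

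Small differences depend on how libraries are scaled. Scaling each to the same total FPKM moved the median log2 change of all genes tested to -0.12 with shRNA1 and -0.03 with shRNA2, and the direction of HK1, PGK1, PGAM1, PKM, LDHA, HIF1A and VEGFA with shRNA1 then turned negative. The 10 genes that passed among protein-coding genes kept their direction with both shRNAs under that scaling. Of the 38 genes, 24 share exon bases with another annotated gene and 15 have pseudogenes carrying their name, such as GAPDH with 61. The summed level of these pseudogenes did not exceed 5.96 FPKM for any gene and library, and how reads were divided among such copies is not known here.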

How the data were processed

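RNA sequencing of 2 knockdown libraries and 1 control library was analysed from the FPKM deposited by the authors, with 1 column, a lower and upper bound and a status word per library, per the file headers. Per the submitters' processing notes, STAR, RSEM and GRCh38 were used; their versions and roles, the annotation, the level of the bounds and any scaling stay unstated. Gene types, coordinates and overlaps came from GENCODE release 29, which matched 99.0% of the 58039 listed genes by identifier. ERINA was found as LINC00992, its RefSeq synonym.

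Changes were computed on log2(FPKM + 0.5) where the mean FPKM reached 1 and tested with limma 3.58.1 in R 4.3.3 (lmFit, then eBayes with trend), two-sided, with Benjamini-Hochberg adjustment at 0.05. The script was tested on simulated data. Tables and plots were made in Python 3.11.15 (pandas 2.3.3, matplotlib 3.10.9). The members and lists were chosen with earlier results of these data known. All 38 members were named; from other lists, the 3 largest changes among genes that passed with protein-coding genes alone were named, and VHL, EGLN2 and DDIT4 were added after their values were seen. Depth was estimated from genes of 1 transcript of at least 500 nt whose upper bound stood at the ratio typical of a single fragment, 3.00 to 3.08 times the FPKM; scaling by the authors would alter it.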

Additional observations from a re-analysis of the deposited data

How the results depend on the processing

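Over all genes, limma (Benjamini-Hochberg, 0.05) called 11 higher and 35 lower. These became 0 and 0 with no filter on low values (5039 of 26013 genes with an unadjusted p under 0.05), 65 and 111 with the same total FPKM, 430 and 595 with robust eBayes and 821 and 1299 with protein-coding genes alone, and 6 higher calls were left without the mean-variance trend. Of the members, 1 higher (ANKRD37) and 2 lower (ANGPTL4 and P4HA2) passed with robust eBayes and 2 higher and 8 lower with protein-coding genes alone, against 0 in each of the other settings run. The median of the glycolytic enzymes, -0.12, was -0.063 at a mean of at least 5 FPKM, -0.20 with the same total and -0.084 with the same upper quartile, and -0.13 to -0.10 when leaving out 1 shRNA library. That of the other HIF targets, 0.04, was -0.14 at a mean of at least 5 FPKM and -0.05 to 0.11 when leaving out 1 shRNA library. Members at least 1.5-fold lower numbered 4 with both shRNAs, 2 with a pseudocount of 1 and 4 to 8 when leaving out 1 shRNA library, and members at least 1.5-fold higher numbered 1, and 0 at a mean of at least 5 FPKM. Directions turned for PKM (0.037 with the same upper quartile), HIF1A (-0.066 with the same total) and KDM3A (-0.0305 with the same total), and, when leaving out 1 shRNA library, for PKM (-0.018 to 0.013), HIF1A (-0.061 to 0.083), CA9 (-0.052 to 0.23), ADM (-0.40 to 0.12) and KDM3A (-0.047 to 0.13), none of which passed in any setting run. The causes were not tested. No paired analysis was possible because there is only 1 control library.

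Leaving out either shRNA library leaves no residual degrees of freedom, so those values have no test. The control has no second library, so its own spread is unknown. At the depth estimated, 1 fragment over 1 kb is worth 0.0335 to 0.0352 FPKM, so SLC2A3, at 0 to 0.136 FPKM, rests on few fragments. LDHB and CA9 were scarce too, at 1.05 to 2.53 FPKM across the libraries.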
